A study of Xenopus laevis with 12 samples.

Results

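Cytochrome P450 enzymes are heme-containing oxygenases that modify fatty acids, sterols, steroids, vitamins and foreign chemicals. Of the 44478 genes in the deposited tables of Xenopus laevis, 63 carried a name that begins with cyp and a number and were taken as the P450 genes; the 6 cyp26 genes, which break down retinoic acid, were left out, and 52 genes described as P450 but named otherwise were kept apart. By family number, 6 were fatty acid genes (cyp4), 4 were steroid genes (cyp11, cyp17, cyp19 and cyp21), 14 were sterol and bile acid genes, 5 were vitamin D genes, 5 belonged to family 1, 24 to family 2 and 3 to family 3, and 2 were cyp20a1 genes. They were described in RNA from pools of whole bots, which are motile bodies grown from frog embryo tissue. A biobot (BB) was an animal cap, the prospective ectoderm cut from the top of a stage 9 embryo, which closed on its own into a sphere covered by larval skin. A neurobot (NB) was such a cap that had enclosed clumps of neural precursors, which were animal cap cells dissociated and kept apart for hours before they were reaggregated. A sham neurobot (SH) was built in the same way with clumps of cells reaggregated right after dissociation. Each bot type had 4 libraries. The labels name no altered gene and no drug for any group, and the age of the bots at RNA extraction is not given in the sources used here. Neurobot pools held 12 or 14 bots, biobot pools 5, 6 or 16 and sham pools 5 or 6. NB1 and BB1 came from a first submission that held no sham.

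Microsomal P450 enzymes receive electrons from cytochrome P450 reductase (por), and mitochondrial ones from ferredoxin (fdx1) and its reductase (fdxr). Vertebrate liver is the organ best known for the drug-metabolising families, but skin also makes P450 enzymes: in mammals, cyp4 enzymes oxidise the fatty acids of barrier lipids, and keratinocytes both activate vitamin D through cyp27b1 and break it down through cyp24a1. The steroid families carry out successive steps from cholesterol to the steroid hormones.

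Counts per library summed to between 27265034 and 37985824. Larval skin was present in all bots: the 19 genes of the epidermal list summed to 1319 to 2992 FPKM (fragments per kilobase of gene, scaled by the DESeq2 size factor of each library) in neurobots, 1187 to 1933 in biobots and 1227 to 1385 in shams, and no gene of the epidermal, goblet, multiciliated, ionocyte or small secretory cell list was at 0 throughout. The 28 endoderm and liver genes summed to 2.999 to 13.4, 2.09 to 21.6 and 1.48 to 2.66 FPKM, with the highest value in BB3. Other cell types moved with the bot type. The 12 goblet cell genes summed to 4860 to 10639 FPKM in neurobots, 12318 to 14422 in biobots and 7931 to 12041 in shams, so that every neurobot was below every biobot but overlapped the shams. The 7 small secretory cell genes summed to 4.95 to 7.44, 13.7 to 31.7 and 14.4 to 18.8 FPKM, with every neurobot below all other libraries. The 24 neuron genes summed to 372 to 647 FPKM in neurobots and 44.9 to 48.7 and 49.8 to 52.9 in shams and biobots, the 14 genes of pigment epithelium and melanocytes to 38.4 to 146, 7.14 to 11.3 and 6.58 to 12.2, and the 17 ionocyte genes to 58.7 to 820.4, 805 to 1414 and 1299.7 to 1798. NB1 stood apart from the other neurobot pools, with 820.4 FPKM of ionocyte genes against 58.7 to 105 in NB2 to NB4, and 18.5 FPKM over the 18 photoreceptor genes against 129 to 174. In such pools, fewer cells of a type and less RNA per cell cannot be told apart, and the part of these cell types in the P450 results was not tested.

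P450 transcripts were less abundant in neurobots than in either other bot type. The FPKM of all 63 genes summed to 373 ± 50.3 in neurobots, 667 ± 34.6 in biobots and 521 ± 7.002 in shams (mean ± SD, n = 4 each), and the ranges did not overlap, at 332 to 435, 618 to 694 and 515 to 532. Summed fatty acid genes stood at 35.3 to 53.5 FPKM in neurobots, 99.2 to 129 in biobots and 87.9 to 105 in shams, and family 2 at 147 to 203, 301 to 321 and 236 to 253. The vitamin D genes lay the other way, at 5.91 to 7.39 FPKM in neurobots, 2.93 to 6.72 in biobots and 2.21 to 3.55 in shams, where the highest biobot value was that of BB1. These sums are descriptions, since they follow the few genes with high levels. The sums of the goblet, ionocyte and small secretory cell genes were, like the P450 sum, lower in every neurobot than in every biobot. Those of the epidermal and multiciliated cell genes overlapped (multiciliated, 385 to 544 FPKM in neurobots and 351 to 454 in biobots). The highest epidermal sum was that of NB1, at 2992 FPKM beside 1319 to 1701 in NB2 to NB4. Of 7 goblet cell genes tested, 1 was higher and 2 lower against biobots, beside 19.5% and 12.3% of all genes. Against shams 3 were higher and none lower, beside 19.6% and 13.2%. The other lists are set beside the same shares. Of 18 epidermal genes tested, 2 were higher and 6 lower against biobots, and 3 higher and 5 lower against shams. For 17 ionocyte genes these counts were 1 and 14, and 1 and 8. For 20 multiciliated cell genes they were 3 and 4, and 3 and 5. Of 4 small secretory cell genes 3 were lower and none higher in each comparison. The part of skin cells in the P450 sum was not tested.

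**Figure D1:**
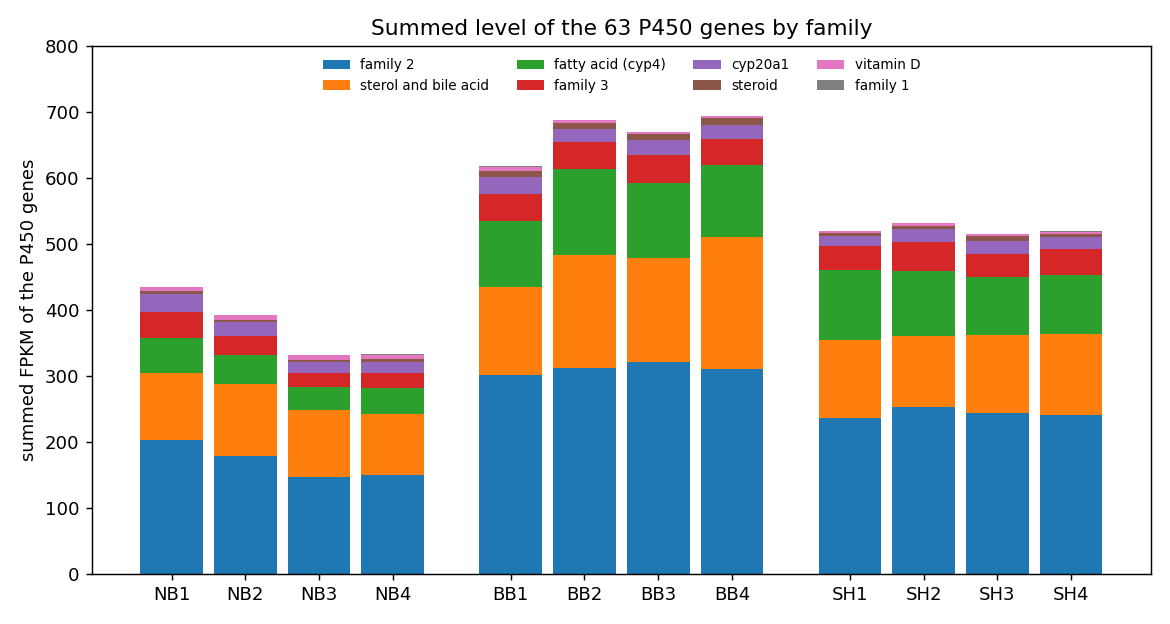
Stacked bars give the summed FPKM of the 63 P450 genes in each library (NB, neurobots; BB, biobots; SH, sham neurobots), divided by family. The neurobot bars reach 332 to 435 FPKM, below all sham bars (515 to 532) and all biobot bars (618 to 694).

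Gene by gene, both directions occurred. Against biobots, 42 of the 63 genes passed the filter on low counts, and 6 were higher and 10 lower in neurobots (edgeR's quasi-likelihood test, adjusted p under 0.05 over all genes tested). That is 38.1% of them, beside 31.8% of all 24082 genes tested. The share called higher was 19.5% and the share called lower 12.3% over all genes, so that more P450 genes were lower than higher where the reverse held for all genes. Their median log2 fold change was -0.13, beside 0.03 over all genes. Against shams, 9 of 42 tested genes were higher and 9 lower (42.9%, beside 32.9% of all genes, 19.6% higher and 13.2% lower), with a median of -0.22 beside 0.01. With library sizes alone in place of TMM (trimmed mean of M-values) factors this split was 6 higher and 12 lower. Shams against biobots gave 2 higher and 2 lower of 41 tested (9.76%, beside 5.74% of all genes, 3.55% higher and 2.19% lower), with a median of -0.26 beside a median near 0 over all genes. The 3 comparisons share their libraries. Without NB1 and BB1, 25 P450 genes were called against biobots, 29 against shams and 10 between shams and biobots, beside 45.7%, 43.1% and 12.4% of all genes, and every gene called with all libraries was still called.

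Of the 63 genes, 5 were called higher against both biobots and shams (cyp27b1.L, cyp27b1.S, cyp27c1.S, cyp1b1.S and cyp7b1.L, the calls of the last pair against shams being lost with library sizes alone) and 7 were called lower against both (cyp4b1.L, cyp4b1.2.L, cyp4f22.S, cyp46a1.3.L, cyp2d6.S, cyp2e1.L and cyp17a1.L). In all, 44 genes were tested at least once and 19 never; 8 of the 63 had at most 3 counts in every library, and cyp2a6.8.L and cyp8b1.2.L had no count. More than 3 counts in every library were seen for 34 genes. The libraries of neurobots did not overlap those of biobots for 15 of 42 tested genes (33.5% of all genes tested) nor those of shams for 16 of 42 (34.8%).

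**Figure D2:**
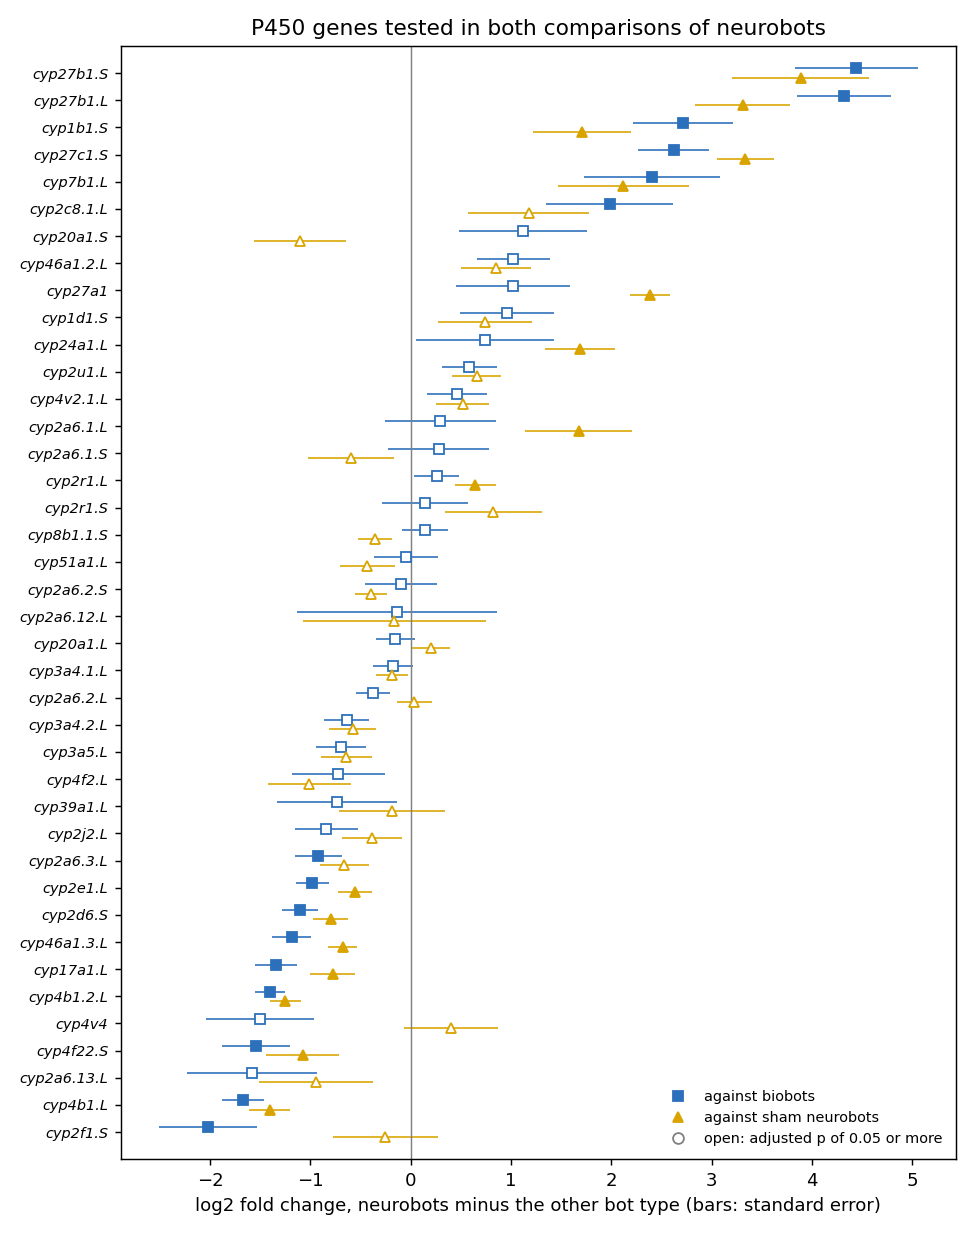
Log2 fold changes with standard errors of the P450 genes tested in both comparisons of neurobots, against biobots (squares) and against sham neurobots (triangles), in the order of the first. Open symbols have an adjusted p of 0.05 or more. Against biobots the cyp27b1 homeologs stand farthest to the right (4.31 for cyp27b1.L). Against shams cyp27c1.S (3.34) lies just beyond cyp27b1.L (3.31). cyp4b1.L, cyp4f22.S and cyp4b1.2.L are filled on the left in both comparisons.

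A few genes carried most of the P450 RNA. The 12 with the highest mean level held 85.8 to 93.1% of the summed P450 FPKM of a library. The highest was cyp46a1.3.L at a mean of 108 FPKM over the 12 libraries, followed by cyp2e1.L at 103, cyp2a6.3.L at 68.8, cyp2d6.S and cyp4b1.L at 39.05 and 38.95, cyp4b1.2.L at 34.96, cyp3a4.2.L at 26.2 and cyp20a1.L at 20.1 FPKM. Neighbours in that order exchanged places between libraries. In biobots cyp46a1.3.L ranged from 109 to 189.8 FPKM and cyp2e1.L from 121 to 155, while in neurobots they ranged from 63.7 to 72.03 and 64.2 to 83.5.

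**Figure D3:**
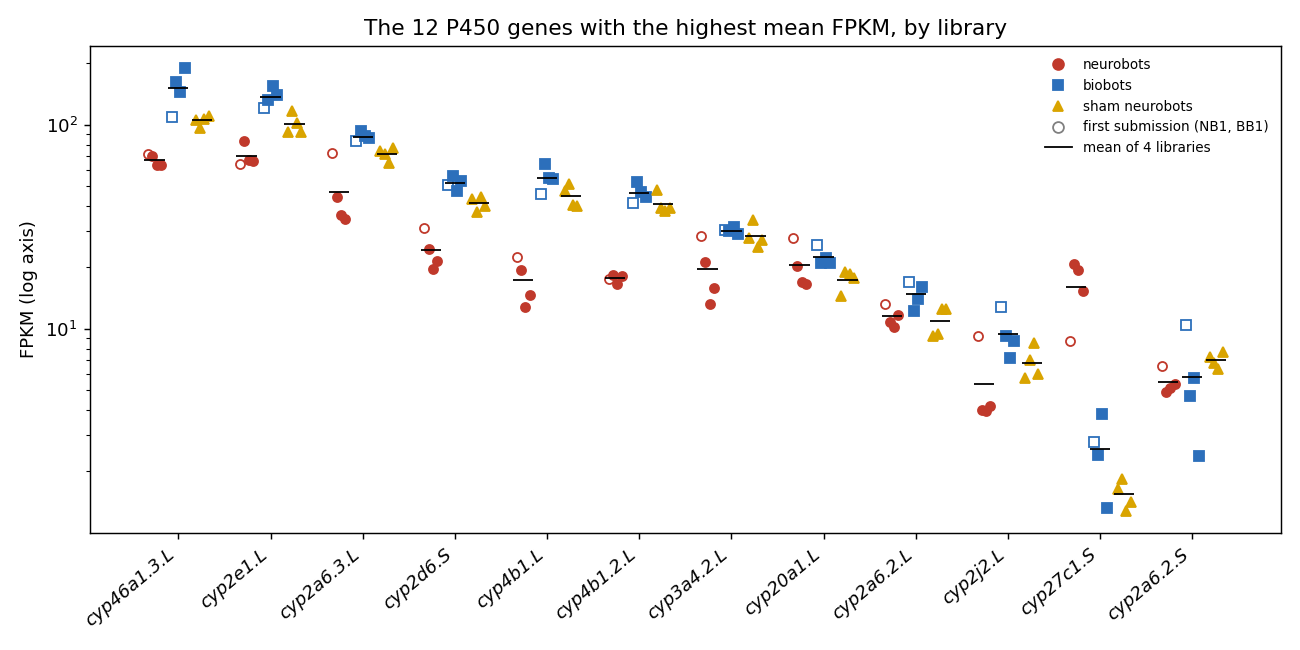
FPKM on a log axis of the 12 P450 genes with the highest mean level, each symbol 1 library and each line the mean of 4; open symbols are NB1 and BB1 of the first submission. The cyp4b1 genes of neurobots (12.8 to 22.5 FPKM) lie below those of all biobots and shams (37.9 to 64.1), and cyp27c1.S lies above them (8.76 to 20.7 against 1.28 to 3.83).

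The fatty acid genes of the cyp4 family, whose products hydroxylate fatty acids near the methyl end, were lower in neurobots for 3 of 6 members, among them both abundant ones. All 6 were tested in each comparison; 3 were lower and none higher in neurobots against biobots and likewise against shams, beside 12.3% and 13.2% of all genes lower. None was called between shams and biobots, beside 5.74% of all genes, and 2 of the 6 had an unadjusted p under 0.05 there. The median log2 fold change of the 6 was -1.45 against biobots and -1.04 against shams.

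cyp4b1.L (chromosome 4L, 88828581 to 88838867, X. laevis v10.1) stood at 22.5, 19.4, 12.8 and 14.7 FPKM in NB1 to NB4, 45.6, 64.1, 55.1 and 53.98 FPKM in BB1 to BB4 and 47.5, 51.1, 40.6 and 40.1 FPKM in SH1 to SH4. Every neurobot pool was below every other library, with NB1 the highest of the 4. On the log2 scale the change was -1.67 ± 0.21 SE, adjusted p = 0.000194 against biobots and -1.41 ± 0.20 SE, adjusted p = 0.0005996 against shams. Its neighbour cyp4b1.2.L (chromosome 4L, 88845327 to 88860809) had 17.6, 18.4, 16.5 and 18.2 FPKM in NB1 to NB4, 41.5, 52.3, 46.9 and 44.3 FPKM in BB1 to BB4 and 47.8, 39.1, 37.9 and 38.9 FPKM in SH1 to SH4. Here the neurobot pools lay close together and again below all others, with log2 fold changes of -1.40 ± 0.15 SE, adjusted p = 8.71e-05 and -1.25 ± 0.15 SE, adjusted p = 0.0002197. Between shams and biobots both genes overlapped, at log2 fold changes of -0.27 ± 0.14 SE, adjusted p = 0.255 and -0.15 ± 0.13 SE, adjusted p = 0.497.

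cyp4f22.S (chromosome 2S, 71558813 to 71590883) is the frog counterpart of human CYP4F22, which makes the very long omega-hydroxy fatty acids of the skin barrier. It stood at 4.39, 1.97, 1.37 and 1.79 FPKM in NB1 to NB4, 5.67, 7.58, 7.79 and 6.398 FPKM in BB1 to BB4 and 5.13, 3.15, 5.44 and 5.79 FPKM in SH1 to SH4. All biobots were above all neurobots (-1.54 ± 0.34 SE, adjusted p = 0.00556), whereas NB1 lay within the sham range, and the call against shams (-1.08 ± 0.36 SE, adjusted p = 0.0438) was lost without NB2, NB3, NB4, SH1, SH3 or SH4 (adjusted p = 0.0818 to 0.113). The other fatty acid genes were not called. cyp4v2.1.L, whose human counterpart is needed in the retina, had 3.55 to 7.802 FPKM in neurobots, 2.899 to 5.49 in biobots and 2.72 to 3.91 in shams, and its array neighbour cyp4v4 had 0.238 to 0.577, 0.277 to 1.43 and 0.174 to 0.435. For cyp4v4, BB1 (0.277 FPKM) lay far below the other biobots, and without NB1 and BB1 the log2 fold changes were -1.84 ± 0.44 SE, adjusted p = 0.00771 for neurobots against biobots and -2.21 ± 0.37 SE, adjusted p = 0.00801 for shams against biobots. cyp4f2.L had 0.248 to 0.795 FPKM in neurobots, 0.428 to 0.999 in biobots and 0.661 to 1.004 in shams, with a log2 fold change against shams of -1.01 ± 0.41 SE, adjusted p = 0.0833.

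Of the 4 steroid genes, cyp17a1.L and cyp11a1.S were tested against biobots and both were lower in neurobots, beside 12.3% of all genes. cyp17a1.L (chromosome 7L, 24444236 to 24461852) encodes the 17-alpha-hydroxylase that leads from progestogens to androgens and cortisol. It was the one steroid gene with a steady level, at 4.01, 2.69, 2.797 and 4.19 FPKM in NB1 to NB4, 7.63, 8.36, 8.99 and 9.503 FPKM in BB1 to BB4 and 4.68, 5.42, 7.06 and 5.77 FPKM in SH1 to SH4. No neurobot overlapped any other library, and no sham overlapped any biobot. edgeR gave a log2 fold change of -1.35 ± 0.21 SE, adjusted p = 0.000728 against biobots and -0.78 ± 0.22 SE, adjusted p = 0.0231 against shams, the latter lost without NB2, NB3, SH3 or SH4 (adjusted p = 0.0555 to 0.07497). The replicate number as a block also lost the call against shams (0.0515). Shams against biobots gave -0.57 ± 0.15 SE, adjusted p = 0.0506.

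cyp11a1.S (chromosome 3S, 60467317 to 60494496), whose product cuts the side chain of cholesterol and so opens all steroid synthesis, rested on few counts. It had 16, 8, 7 and 3 counts in NB1 to NB4, 57, 38, 11 and 76 in BB1 to BB4 and 2, 0, 5 and 0 in SH1 to SH4. Biobots were highest except for BB3, which overlapped the neurobots, and shams were at or near 0. This amounted to a log2 fold change of -2.53 ± 0.68 SE, adjusted p = 0.0164 in neurobots and -4.66 ± 0.89 SE, adjusted p = 0.0185 in shams, each against biobots. The first call was lost without NB2 or BB4 (adjusted p = 0.0519 to 0.0547) and the second without SH1, SH4 or BB4 (adjusted p = 0.0521 to 0.0637). Neurobots against shams was not tested for this gene. cyp19a1.L, the aromatase that makes estrogens, had 1, 13, 3 and 3 counts in NB1 to NB4, 6 in BB2, 1 in SH3 and 0 elsewhere, and cyp21a2.1.L, the 21-hydroxylase, had at most 3 counts in any library. The cholesterol carrier star, which feeds steroid synthesis, had mean levels of at most 0.0115 FPKM in any bot type for both homeologs.

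Among the 14 sterol and bile acid genes, 2 were higher and 1 lower of 8 tested against biobots, and 3 were higher and 2 lower of 9 tested against shams. Grouping was by family number, so that the 14 include the cyp27c1 homeologs, although cyp27c1 acts on vitamin A. cyp27c1.S was among the higher genes in both comparisons. The shares called were 37.5% and 55.6%, beside 31.8% and 32.9% of all genes, so that the first was near that of all genes. The most abundant P450 gene of all, cyp46a1.3.L (chromosome 8L, 81725549 to 81741933), belongs here. In mammals CYP46A1 is the cholesterol 24-hydroxylase of neurons, and here the level was lowest in neurobots. Levels were 72.03, 70.02, 63.8 and 63.7 FPKM in NB1 to NB4, 109, 162, 145 and 189.8 FPKM in BB1 to BB4 and 106, 96.7, 107 and 111 FPKM in SH1 to SH4. Every neurobot pool was below every sham and biobot pool, with a log2 fold change of -1.19 ± 0.19 SE, adjusted p = 0.000947 against biobots and -0.68 ± 0.15 SE, adjusted p = 0.00615 against shams. A gene model without a name overlaps it on the same strand. The next gene in the same array, cyp46a1.2.L (chromosome 8L, 81690513 to 81716974), had far lower levels, at 0.6997, 1.33, 0.955 and 1.100 FPKM in NB1 to NB4, 0.358, 0.6797, 0.416 and 0.5203 FPKM in BB1 to BB4 and 0.583, 0.7500, 0.368 and 0.504 FPKM in SH1 to SH4. Its log2 fold change of 1.02 ± 0.37 SE, adjusted p = 0.0545 against biobots and 0.85 ± 0.35 SE, adjusted p = 0.0857 against shams was not called, although no neurobot overlapped a biobot. Without NB1 and BB1 these values were 1.02 ± 0.33 SE, adjusted p = 0.0326 and 0.98 ± 0.32 SE, adjusted p = 0.03401. With all libraries kept, cyp46a1.2.L was called against biobots with DESeq2 (adjusted p = 0.0234) and 1 fit on all libraries (0.0345). It was also called there with limma on log2(FPKM + 1) and log2(FPKM + 0.1) (0.0268 and 0.0297). Against shams DESeq2 (0.0484) and limma on log2(FPKM + 1) (0.0449) called it. The first gene of the array, cyp46a1.1.L, had at most 4 counts in a library.

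cyp27c1.S (chromosome 9_10S, 51031782 to 51046442) was the one gene among the 12 most abundant that was higher in neurobots. Its product, known from zebrafish and bullfrog, turns vitamin A1 into vitamin A2 in the eye, which shifts visual pigments to red. The levels were 8.76, 20.7, 19.3 and 15.3 FPKM in NB1 to NB4, 2.77, 2.39, 3.83 and 1.32 FPKM in BB1 to BB4 and 1.63, 1.84, 1.28 and 1.42 FPKM in SH1 to SH4. NB1 was the lowest neurobot pool and still above every other library. The log2 fold change was 2.62 ± 0.35 SE, adjusted p = 0.000301 against biobots and 3.34 ± 0.28 SE, adjusted p = 3.62e-05 against shams, and between shams and biobots it was -0.72 ± 0.28 SE, adjusted p = 0.148. The photoreceptor genes were likewise lower in NB1 than in NB2 to NB4 (18.5 against 129 to 174 FPKM in sum), and their part in this difference was not tested.

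cyp27a1 (chromosome 9_10L, 63249918 to 63265861), the mitochondrial sterol 27-hydroxylase of bile acid synthesis, stood at 12.7, 10.1, 9.43 and 7.32 FPKM in NB1 to NB4, 12.8, 1.58, 2.76 and 2.26 FPKM in BB1 to BB4 and 1.999, 1.799, 1.88 and 1.68 FPKM in SH1 to SH4. Neurobots were far above shams, with no overlap (2.39 ± 0.20 SE, adjusted p = 3.41e-05). Against biobots the gene was not called (1.02 ± 0.57 SE, adjusted p = 0.198), and BB1 was as high as the highest neurobot. Without BB1 the log2 fold change was 2.14 (adjusted p = 0.0005699). With all libraries kept, cyp27a1 was called against biobots with the replicate number as a block (adjusted p = 0.0291) and limma on log2(FPKM + 0.1) (0.0435). The other alternatives that kept all libraries did not call it there. Further gene models overlap cyp27a1 on the same strand. cyp7b1.L (chromosome 6L, 126301897 to 126416962), the oxysterol 7-alpha-hydroxylase, had 6, 51, 52 and 66 counts in NB1 to NB4, 3, 12, 4 and 11 in BB1 to BB4 and 9, 4, 12 and 12 in SH1 to SH4. NB2 to NB4 were above all other libraries and NB1 was among the biobots. On the log2 scale the change was 2.41 ± 0.68 SE, adjusted p = 0.0207 against biobots and 2.12 ± 0.65 SE, adjusted p = 0.0318 against shams. The first call was lost without NB2, NB4, BB1 or BB3 (adjusted p = 0.0524 to 0.0606) and the second without NB2, NB3, NB4, SH1, SH2, SH3 or SH4 (adjusted p = 0.0585 to 0.0761). The second was also lost with library sizes alone (adjusted p = 0.0556), the replicate number as a block (0.0831) and limma on log2(FPKM + 0.1) (0.0511). Its adjusted p ranged from 0.001503 to 0.0831 over all alternatives. Both were called without NB1 and BB1, at 2.52 ± 0.45 SE, adjusted p = 0.00162 and 2.47 ± 0.43 SE, adjusted p = 0.001503.

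The S homeolog of lanosterol demethylase, cyp51a1.S (chromosome 6S, 24578773 to 24595549), a step of cholesterol synthesis, was highest in shams. It had 15, 3, 19 and 8 counts in NB1 to NB4, 7, 11, 7 and 19 in BB1 to BB4 and 55, 22, 38 and 54 in SH1 to SH4, and no sham overlapped a neurobot or biobot. edgeR gave a log2 fold change of -1.95 ± 0.56 SE, adjusted p = 0.0243 for neurobots against shams and 1.88 ± 0.45 SE, adjusted p = 0.0373 for shams against biobots. Those calls were lost without NB4, SH1, SH3 or SH4 (adjusted p = 0.0558 to 0.06696) and without SH1, SH3, SH4, BB2 or BB3 (adjusted p = 0.0884 to 0.115). The call between shams and biobots was also lost with the replicate number as a block (0.0526). The L homeolog, with the higher level, was not called: cyp51a1.L had 1.15 to 1.797 FPKM in neurobots, 1.14 to 2.13 in biobots and 1.37 to 2.24 in shams.

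The other bile acid genes were not called. cyp8b1.1.S, the sterol 12-alpha-hydroxylase, had 3.43 to 4.69 FPKM in neurobots, 2.73 to 5.301 in biobots and 4.13 to 5.84 in shams, with log2 fold changes of 0.14 ± 0.23 SE, adjusted p = 0.681 and -0.36 ± 0.17 SE, adjusted p = 0.133 in neurobots. cyp39a1.L, another oxysterol 7-alpha-hydroxylase, varied as much within as between bot types, from 0.256 to 1.11 FPKM within biobots alone (-0.74 ± 0.60 SE, adjusted p = 0.378). The rate-limiting enzyme of bile acid synthesis, cyp7a1, had 11, 3, 4 and 3 counts in SH1 to SH4 for its S homeolog and 3, 0, 1 and 0 in BB1 to BB4, a ratio of 4.99 (95% exact interval 1.68 to 19.99, counting error only), and was not tested. Its L homeolog had 2 counts in SH4 alone.

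Of the 5 vitamin D genes, all tested, 2 were higher in neurobots against biobots and 4 against shams, and none was lower, beside 19.5% and 19.6% of all genes higher. The median log2 fold changes were 0.74 and 1.69, beside 0.03 and 0.01 over all genes. cyp27b1 encodes the 1-alpha-hydroxylase that makes the active hormone. cyp27b1.L (chromosome 2L, 149362047 to 149372625) had 47, 98, 68 and 59 counts in NB1 to NB4, 4, 4, 2 and 2 in BB1 to BB4 and 5, 10, 2 and 9 in SH1 to SH4. In FPKM these were 0.571, 1.09, 0.764 and 0.629 in neurobots and at most 0.1099 in the other bots, with no overlap. This amounted to a log2 fold change of 4.31 ± 0.47 SE, adjusted p = 9.28e-05 against biobots and 3.31 ± 0.47 SE, adjusted p = 0.000604 against shams. Leaving out any 1 library kept both calls.

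cyp27b1.S (chromosome 2S, 133503308 to 133515129) had 12, 46, 41 and 32 counts in NB1 to NB4, against 1, 1, 2 and 1 in BB1 to BB4 and 2, 4, 0 and 2 in SH1 to SH4. Again no library overlapped, and NB1 was the lowest neurobot pool for both homeologs. Scaled by library sizes with TMM factors, the neurobot level was higher than that of biobots by a ratio of 23.7 (95% exact interval 9.904 to 74.2, counting error only). The adjusted p was 0.000344 against biobots and 0.00195 against shams (edgeR).

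cyp24a1.L (chromosome 9_10L, 12462626 to 12508887), the 24-hydroxylase that inactivates the hormone, stood at 0.723, 2.02, 1.498 and 1.85 FPKM in NB1 to NB4, 2.62, 0.335, 0.389 and 0.2895 FPKM in BB1 to BB4 and 0.364, 0.509, 0.519 and 0.4500 FPKM in SH1 to SH4. Neurobots were above shams without overlap (1.69 ± 0.35 SE, adjusted p = 0.004699). BB1 was higher than any other library, at 2.62 FPKM beside 0.2895 to 0.389 in BB2 to BB4, and the difference from biobots was not called (0.74 ± 0.69 SE, adjusted p = 0.445). It was 2.14 (adjusted p = 0.00378) without BB1. The span of pfdn4.L overlaps that of cyp24a1.L on the opposite strand, and the libraries did not mark the strand. Reads from any shared exon could not be told apart, and overlap of exons was not examined. cyp2r1, the 25-hydroxylase that acts before cyp27b1, differed little. cyp2r1.L had 3.84, 3.29, 3.13 and 2.83 FPKM in NB1 to NB4, 3.55, 2.78, 2.403 and 2.09 FPKM in BB1 to BB4 and 1.59, 2.13, 2.49 and 1.96 FPKM in SH1 to SH4. Its log2 fold change was 0.64 ± 0.21 SE, adjusted p = 0.0361 against shams, and 0.26 ± 0.22 SE, adjusted p = 0.411 against biobots. The call against shams was lost without NB2, NB3, SH1, SH2 or SH4 (adjusted p = 0.0594 to 0.103). It was also lost with library sizes alone (0.0538), without the filter (0.0585) and with the replicate number as a block (0.0783). cyp2r1.S was not called (0.15 ± 0.43 SE, adjusted p = 0.823 and 0.82 ± 0.48 SE, adjusted p = 0.212).

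The receptor that the hormone binds went the other way. vdr.L had 0.422, 1.01, 1.88 and 1.85 FPKM in NB1 to NB4, 4.73, 4.41, 4.02 and 4.88 in BB1 to BB4 and 4.21, 3.95, 4.31 and 4.47 in SH1 to SH4, and its log2 fold change in neurobots was -1.81 ± 0.40 SE, adjusted p = 0.00584 against biobots and -1.74 ± 0.40 SE, adjusted p = 0.00809 against shams. vdr.S had 1.699, 1.05, 1.64 and 1.77, 5.13, 3.89, 3.68 and 4.68 and 4.48, 5.24, 4.17 and 3.998 FPKM in the same order (-1.51 ± 0.25 SE, adjusted p = 0.00112 and -1.57 ± 0.23 SE, adjusted p = 0.000691). Every neurobot pool was below every other library for both receptor homeologs.

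**Figure D4:**
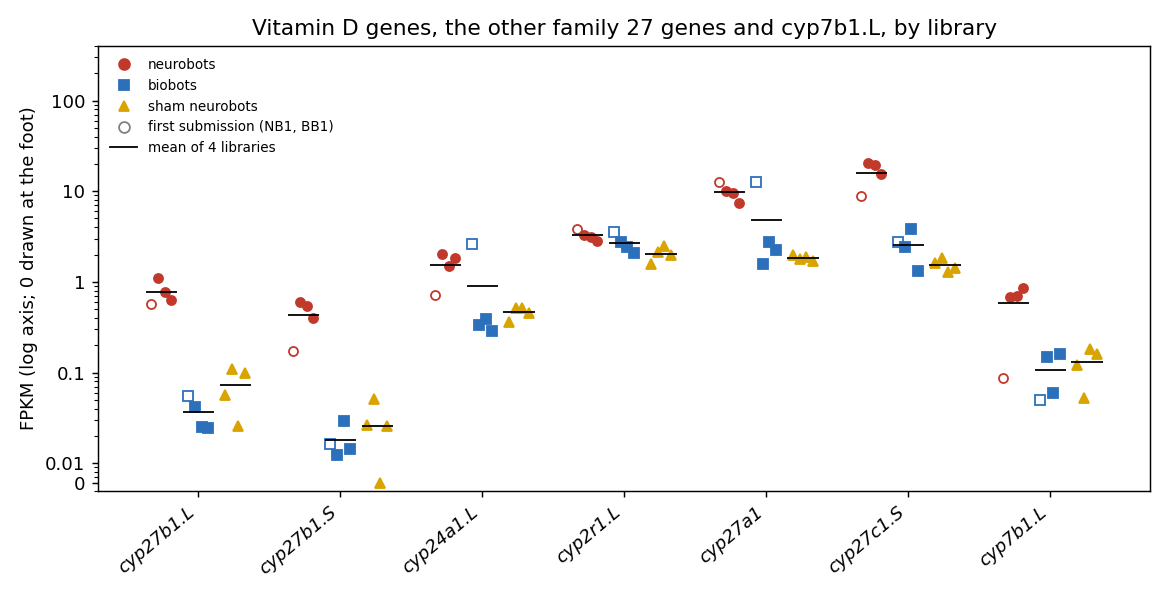
FPKM on a log axis of the cyp27b1 homeologs, cyp24a1.L, cyp2r1.L, cyp27a1, cyp27c1.S and cyp7b1.L, each symbol 1 library and each line the mean of 4; open symbols are NB1 and BB1. Neurobots stand above the other bots, except that BB1 reaches them for cyp24a1.L (2.62 FPKM) and cyp27a1 (12.8 FPKM), that cyp2r1.L overlaps with biobots, and that NB1 lies low for cyp7b1.L (0.0874 FPKM).

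Family 1 enzymes act on polycyclic compounds, and cyp1a1 and cyp1b1 are known targets of the aryl hydrocarbon receptor. Their levels were low in all bots. cyp1b1.S (chromosome 5S, 33479660 to 33506556) had 30, 89, 61 and 83 counts in NB1 to NB4, 12, 14, 5 and 5 in BB1 to BB4 and 30, 7, 20 and 18 in SH1 to SH4. Neurobots were highest, and NB1 was just above the highest sham in FPKM. The log2 fold change was 2.71 ± 0.50 SE, adjusted p = 0.001998 against biobots and 1.71 ± 0.49 SE, adjusted p = 0.0231 against shams, the latter lost without NB2, NB4, SH3 or SH4 (adjusted p = 0.0528 to 0.0653) and with library sizes alone (adjusted p = 0.0517). The replicate number as a block also lost it (0.0759). Over all alternatives the adjusted p against shams ranged from 0.002203 to 0.0759. For cyp1a1.S (chromosome 3S, 59238328 to 59246997) the order differed, with 3, 2, 2 and 0 counts in NB1 to NB4, 22, 1, 6 and 1 in BB1 to BB4 and 18, 17, 9 and 15 in SH1 to SH4. Shams were higher than neurobots without overlap, by a ratio of 8.85 (95% exact interval 4.04 to 22.97, counting error only), with adjusted p = 0.00524 (edgeR). The biobots spread over that whole range, and BB1 had most of their counts. cyp1d1.S was not called (0.96 ± 0.46 SE, adjusted p = 0.141 and 0.74 ± 0.47 SE, adjusted p = 0.245), and cyp1a1.L and cyp1b1.L were not tested.

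Family 2, the largest, had 24 genes, of which 14 were tested against biobots (1 higher, 4 lower) and 13 against shams (1 higher, 2 lower). The shares called, 35.7% and 23.1%, were near or below those of all genes (31.8% and 32.9%). Its 3 most abundant members were all lower in neurobots than in biobots. cyp2e1.L (chromosome 5L, 160095997 to 160121869), whose human counterpart oxidises ethanol and other small molecules, had 64.2, 83.5, 67.3 and 66.5 FPKM in NB1 to NB4, 121, 132, 155 and 140.5 FPKM in BB1 to BB4 and 91.97, 117, 102 and 92.7 FPKM in SH1 to SH4. The 3 bot types did not overlap, with a log2 fold change of -0.98 ± 0.17 SE, adjusted p = 0.00124 against biobots and -0.56 ± 0.17 SE, adjusted p = 0.0297 against shams. The second call was lost without NB3, NB4, SH2, SH3 or SH4 (adjusted p = 0.0525 to 0.0785) and without the filter (0.0524). A gene on the opposite strand overlaps cyp2e1.L. cyp2d6.S (chromosome 4S, 100732857 to 100748086), named after the human enzyme that metabolises many drugs, had 31.3, 24.7, 19.6 and 21.6 FPKM in NB1 to NB4, 50.7, 55.9, 47.1 and 52.97 FPKM in BB1 to BB4 and 43.2, 37.6, 44.03 and 39.9 FPKM in SH1 to SH4. Here too neurobots were lowest and biobots highest without overlap (-1.10 ± 0.18 SE, adjusted p = 0.000842 against biobots and -0.80 ± 0.17 SE, adjusted p = 0.00627 against shams).

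cyp2a6.3.L (chromosome 8L, 70394847 to 70414841) had 72.7, 44.1, 35.96 and 34.5 FPKM in NB1 to NB4, 83.1, 93.5, 87.9 and 85.9 FPKM in BB1 to BB4 and 74.5, 72.01, 64.8 and 76.9 FPKM in SH1 to SH4. NB1 was at the level of the shams while NB2 to NB4 lay below every sham and biobot. On the log2 scale the change was -0.92 ± 0.24 SE, adjusted p = 0.0135 against biobots and -0.66 ± 0.24 SE, adjusted p = 0.0593 against shams, and the latter became -0.97 (adjusted p = 0.000867) without NB1. Alternatives with all libraries that called it against shams included library sizes alone (adjusted p = 0.0137) and DESeq2 (0.0483). Others were the replicate number as a block (0.0484) and 1 fit on all libraries (0.0253). NB1 was also high for cyp2j2.L, an epoxygenase of arachidonic acid in human. Its levels were 9.26, 4.001, 3.95 and 4.16 FPKM in NB1 to NB4, 12.8, 9.17, 7.202 and 8.71 FPKM in BB1 to BB4 and 5.76, 7.02, 8.48 and 6.02 FPKM in SH1 to SH4. edgeR gave a log2 fold change of -0.84 ± 0.31 SE, adjusted p = 0.0616 against biobots, and -1.27 (adjusted p = 0.000813) without NB1. With all libraries kept, cyp2j2.L was called against biobots with DESeq2 (adjusted p = 0.039), no filter (0.0453) and the replicate number as a block (0.0167). The same held for limma on log2(FPKM + 1) and log2(FPKM + 0.1) (0.0378 and 0.0337) and 1 fit on all libraries (0.0306). Against shams cyp2j2.L was not called (-0.39, adjusted p = 0.334), nor by any alternative that kept all libraries, and NB1 was above every sham. Without NB1 the log2 fold change against shams was -0.80 (adjusted p = 0.00549). cyp2u1.L, another fatty acid hydroxylase by its human counterpart, was not called in the main fits (edgeR with TMM factors and the filter). It was higher in neurobots without NB1 and BB1 (0.89 ± 0.22 SE, adjusted p = 0.00878 against biobots and 0.74 ± 0.22 SE, adjusted p = 0.0246 against shams).

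Lower levels and larger folds were seen for cyp2f1.S and cyp2c8.1.L. cyp2f1.S (chromosome 5S, 135569345 to 135582316), named after a lung enzyme of mammals, had 0.503, 0.115, 0.283 and 0.221 FPKM in NB1 to NB4, 0.616, 1.23, 1.35 and 1.32 FPKM in BB1 to BB4 and 0.234, 0.2601, 0.567 and 0.246 FPKM in SH1 to SH4. Biobots were above all neurobots and shams, BB1 being the lowest of them. This amounted to a log2 fold change of -2.02 ± 0.49 SE, adjusted p = 0.009600 for neurobots and -1.77 ± 0.40 SE, adjusted p = 0.0294 for shams, each against biobots, and the second call was lost without SH1, SH4, BB2, BB3 or BB4 (adjusted p = 0.07399 to 0.0946). cyp2c8.1.L (chromosome 8L, 111819228 to 111841334), named after a human enzyme that acts on drugs and arachidonic acid, had 0.1803, 2.66, 1.17 and 1.12 FPKM in NB1 to NB4, 0.262, 0.436, 0.303 and 0.265 FPKM in BB1 to BB4 and 0.504, 0.4896, 0.517 and 0.688 FPKM in SH1 to SH4. NB2 to NB4 were above all other libraries and NB1 below them all. The call against biobots (1.98 ± 0.64 SE, adjusted p = 0.0357) was lost without NB2, NB3, NB4, BB1, BB2, BB3 or BB4 (adjusted p = 0.05496 to 0.132) and with limma on log2(FPKM + 1) or log2(FPKM + 0.1) (0.0742 and 0.0904). The replicate number as a block also lost it (0.0705). Without NB1 and BB1 the changes were 2.24 ± 0.43 SE, adjusted p = 0.00252 against biobots and 1.53 ± 0.36 SE, adjusted p = 0.00758 against shams. With all libraries cyp2c8.1.L was not called against shams (1.18, adjusted p = 0.158). Its S homeolog cyp2c8.1.S had no count in any sham, 20, 14, 5 and 7 counts in NB1 to NB4 and 0, 8, 10 and 29 in BB1 to BB4. Against an assumed 3 counts in each sham library, the mean neurobot level was 3.71-fold and the mean biobot level 4.06-fold higher. These folds leave out the spread between pools, as BB1 had 0 counts like every sham and BB4 had 29. The contrasts with shams did not pass the filter.

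Neighbouring genes of the same array differed widely in level. The cyp2a6 array of chromosome 8L holds 11 of the 63 genes within 274 kb. cyp2a6.3.L, at means of 46.8, 87.6 and 72.1 FPKM in neurobots, biobots and shams, and cyp2a6.2.L, at 11.5, 14.8 and 10.9, stood beside cyp2a6.4.L and cyp2a6.5.L, which had at most 3 counts in a library. cyp2a6.2.L was not called in any comparison. cyp2a6.1.L (chromosome 8L, 70452623 to 70461440) was higher in neurobots than in shams (1.67 ± 0.54 SE, adjusted p = 0.0366), with 24, 22, 11 and 34 counts in NB1 to NB4 and 3, 6, 5 and 13 in SH1 to SH4. The ranges overlapped, at 0.202 to 0.593 FPKM in neurobots and 0.0555 to 0.236 in shams. Without NB1 the adjusted p was 0.0485 (edgeR), and the call was lost without the filter and with the replicate number as a block. cyp2a6.10.L did not pass the filter but had 14, 22, 7 and 14 counts in NB1 to NB4, against 2, 0, 2 and 0 in BB1 to BB4, a ratio of 12.9 (95% exact interval 4.77 to 48.9, counting error only), and 0, 1, 6 and 0 in SH1 to SH4. The 3 cyp2a6 genes of chromosome 8S were likewise unequal, with cyp2a6.2.S at 4.92 to 6.55 FPKM in neurobots, 2.37 to 10.5 in biobots and 6.33 to 7.69 in shams, and cyp2a6.11.S with at most 11 counts in a library. The copies of an array are alike in sequence, and reads that match several of them may have been dropped or assigned to 1 copy, so that their separate levels are uncertain.

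**Figure D5:**
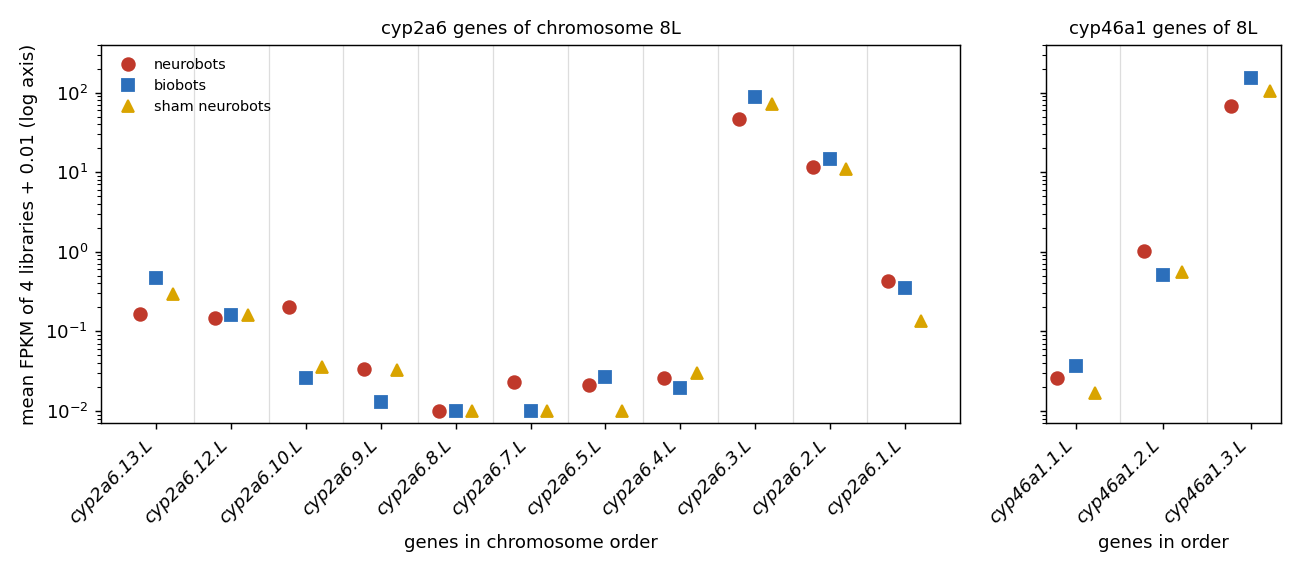
Mean FPKM over 4 libraries (plus 0.01, log axis) of the cyp2a6 genes and of the cyp46a1 genes of chromosome 8L, in their order along the chromosome, for the 3 bot types. In all bot types cyp2a6.3.L (46.8 to 87.6 FPKM) and cyp2a6.2.L (10.9 to 14.8 FPKM) stand out of the first array and cyp46a1.3.L (67.4 to 151 FPKM) out of the second.

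Family 3, named after the main drug-metabolising enzymes of human liver, had 3 genes, and none was called in the main fits. cyp3a4.2.L (chromosome 5L, 91336507 to 91362172) had 28.4, 21.3, 13.2 and 15.9 FPKM in NB1 to NB4, 30.5, 30.02, 31.7 and 29.05 FPKM in BB1 to BB4 and 27.9, 34.1, 25.2 and 27.2 FPKM in SH1 to SH4. NB1 was at the level of the other bot types and NB2 to NB4 were below it. The log2 fold change was -0.64 ± 0.22 SE, adjusted p = 0.0503 against biobots and -0.58 ± 0.23 SE, adjusted p = 0.0832 against shams. Some alternatives that kept all libraries did call cyp3a4.2.L. Against biobots these were library sizes alone (adjusted p = 0.0215), DESeq2 (0.0424), no filter (0.043) and 1 fit on all libraries (0.0229). So did limma on log2(FPKM + 1) and log2(FPKM + 0.1) (0.0389 and 0.0371). Against shams they were library sizes alone (0.015) and 1 fit on all libraries (0.0391). Without NB1 and BB1 the log2 fold changes of cyp3a4.2.L were -0.89 ± 0.18 SE, adjusted p = 0.00349 and -0.82 ± 0.19 SE, adjusted p = 0.00718, and those of cyp3a5.L -1.05 ± 0.17 SE, adjusted p = 0.001096 and -0.96 ± 0.17 SE, adjusted p = 0.00164. The neighbour of cyp3a4.2.L, cyp3a4.1.L, was not called, with 3.41 to 4.16 FPKM in neurobots, 3.496 to 5.11 in biobots and 3.98 to 4.35 in shams, and a log2 fold change of -0.18 ± 0.20 SE, adjusted p = 0.526 against biobots.

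cyp20a1, an enzyme whose substrate is not settled, was expressed mostly from its L homeolog. cyp20a1.L had 27.99, 20.3, 17.01 and 16.6 FPKM in NB1 to NB4, 25.6, 21.01, 22.3 and 21.1 FPKM in BB1 to BB4 and 14.5, 18.9, 18.5 and 17.7 FPKM in SH1 to SH4, and no comparison was called. Its S homeolog had a level of at most 0.603 FPKM, yet shams were higher than biobots without overlap, with 83, 61, 53 and 28 counts in SH1 to SH4 and 9, 11, 2 and 24 in BB1 to BB4. The log2 fold change of cyp20a1.S was 2.23 ± 0.57 SE, adjusted p = 0.0471 for shams against biobots, and that call was lost without SH1, SH3, SH4, BB2 or BB3 (adjusted p = 0.0733 to 0.116). The replicate number as a block also lost it (0.0749).

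X. laevis carries 2 subgenomes, L and S, and 43 of the P450 genes ended in L, 18 in S and 2 in neither; 11 pairs had both homeologs. The share of a pair's FPKM that came from L differed between pairs. It was 98.4 to 99.7% for cyp20a1 in neurobots and 76.4 to 89.6% for cyp2r1, but 0.0666 to 0.258% for cyp27c1. In biobots the L share of cyp27c1 was 0.616 to 12.1% and in shams 2.17 to 8.83%, and the L copy had 1 to 12 counts in each library. Both copies of cyp27b1 were higher in neurobots, with an L share of 58.6 to 76.97%. For cyp51a1 the L share was 70.1 to 82.5% in shams, 87.3 to 96.8% in neurobots and 80.3 to 94.8% in biobots.

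Between shams and biobots 4 of the 41 tested P450 genes were called (9.76%, beside 5.74% of all genes). They were cyp20a1.S and cyp51a1.S, which were higher in shams, and cyp11a1.S and cyp2f1.S, which were lower. All 4 calls were lost without 1 or another library, and those of cyp20a1.S, cyp2f1.S and cyp51a1.S also in 1 fit on all libraries (adjusted p = 0.0864, 0.0861 and 0.111; 0.000493 to 0.116 over all their alternatives). With the replicate number as a block those of cyp20a1.S and cyp51a1.S were lost as well (0.0749 and 0.0526). At an unadjusted p under 0.05, 20 of the 41 tested genes differed, beside 5712 of 22764 over all genes. Groups did not overlap for 10 of the 41 genes, beside 16.6% of all genes tested. Among these was cyp17a1.L, which just missed the threshold (adjusted p = 0.0506). It was called with DESeq2 (adjusted p = 0.00986) and with limma on log2(FPKM + 1) and log2(FPKM + 0.1) (0.0435 and 0.0413).

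The P450 enzymes need electron donors and heme. Of a list of redox partners and heme synthesis genes, 30 were tested against biobots, and 11 were lower and none higher in neurobots, beside 12.3% of all genes lower and 19.5% higher. Against shams 4 of 31 were lower and 1 was higher, a share of lower genes near the 13.2% of all genes, and shams against biobots gave 2 lower of 31, beside 2.19%. por.L, the reductase of the microsomal enzymes, had 35.4, 24.8, 28.95 and 29.1 FPKM in NB1 to NB4, 69.01, 49.4, 44.9 and 42.8 in BB1 to BB4 and 56.7, 41.4, 54.6 and 46.5 in SH1 to SH4. All neurobots were below all other libraries (-0.82 ± 0.20 SE, adjusted p = 0.0114 against biobots and -0.79 ± 0.19 SE, adjusted p = 0.00965 against shams). The same held for por.S, at 13.1, 13.4, 13.4 and 14.05 FPKM in neurobots beside 17.8 to 32.8 in the others (-0.78 ± 0.20 SE, adjusted p = 0.01198 and -0.61 ± 0.14 SE, adjusted p = 0.007101). fdx1.L, which serves the mitochondrial enzymes cyp11a1, cyp24a1, cyp27a1 and cyp27b1, had log2 fold changes of -0.89 ± 0.19 SE, adjusted p = 0.00466 and -0.67 ± 0.21 SE, adjusted p = 0.0348, and alas1.S, the first enzyme of heme synthesis, -1.18 ± 0.28 SE, adjusted p = 0.00879 and -1.02 ± 0.29 SE, adjusted p = 0.02402. Levels of fdx1.L were 33.9 to 50.04 FPKM in neurobots, 60.1 to 84.4 in biobots and 47.6 to 83.6 in shams, so that neurobots overlapped the shams. Without NB1 and BB1, 18 of 30 list genes were lower against biobots and 12 of 31 against shams, a setting chosen for these lists after seeing the data. The share of all genes called lower also rose there, to 19% and 18.6%.

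Nuclear receptors and other regulators of P450 genes included more lower than higher genes in neurobots. Of 30 tested against biobots, 3 were higher and 10 lower, beside 19.5% and 12.3% of all genes, and of 31 against shams 3 were higher and 14 lower, beside 19.6% and 13.2%. Lower were the vitamin D receptor homeologs, nr1i2.L, the pregnane X receptor that senses foreign chemicals (-0.74 ± 0.18 SE, adjusted p = 0.0114 against biobots and -0.77 ± 0.19 SE, adjusted p = 0.0106 against shams), and pparg.L, a fatty acid sensor (-1.99 ± 0.26 SE, adjusted p = 0.000274 and -1.70 ± 0.27 SE, adjusted p = 0.00115). Higher were arnt2.L, a partner of bHLH-PAS factors known from neurons (5.01 ± 0.49 SE, adjusted p = 5.43e-05 and 4.48 ± 0.42 SE, adjusted p = 5.91e-05), rxrg.L and ppard.S. The aryl hydrocarbon receptor itself had mean levels of 3.03, 2.48 and 2.74 FPKM in neurobots, biobots and shams for ahr.S and was not called.

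Beside cyp51a1.S, some further cholesterol synthesis genes were higher in shams than in biobots. The summed level of the 45 genes of this list did not differ, at 264 to 274 FPKM in shams and 257 to 290 in biobots. Of 42 tested, 8 were higher and 1 lower, while 3.55% of all genes tested were higher and 2.19% lower. sqle.S, the squalene epoxidase, had 0.367, 0.247, 0.428 and 0.3305 FPKM in SH1 to SH4 and 0.0581, 0.0437, 0.0196 and 0.0257 in BB1 to BB4 (3.22 ± 0.41 SE, adjusted p = 0.00509). lss.S, which makes lanosterol, the substrate of cyp51a1, gave 1.39 ± 0.22 SE, adjusted p = 0.00951, and msmo1.S, the next oxidase of the pathway, 2.18 ± 0.49 SE, adjusted p = 0.03101. Their levels were low, at 1.16 to 1.61 FPKM (lss.S) and 1.498 to 2.01 FPKM (msmo1.S) in shams. In biobots they were 0.459 to 0.689 and 0.0564 to 0.782 FPKM. Neurobots were lower than shams for 10 of 43 list genes and higher for none, and against biobots 2 of 42 were higher and 7 lower, beside 13.2% and 12.3% of all genes lower, so that the share lower against biobots was near that of all genes. Without NB1 and BB1 the counts for shams against biobots were 12 higher and 1 lower of 44, beside 7.39% and 4.97% of all genes. The other alternatives were not examined for this list. Over all genes, this comparison had 1306 calls in the main fit, 2884 without BB1 and 351 in 1 fit on all libraries. Of the genes that surround the steroid enzymes, 2 of 21 were lower in neurobots against biobots, 2 of 21 against shams, and none was higher. These counts lay below the shares of all genes (12.3% and 13.2% lower). Without NB1 and BB1 they lay above them. There 9 of 22 were lower and 2 higher against biobots, and 7 of 22 lower and 2 higher against shams. The shares of all genes lower were 19% and 18.6%. Shams against biobots gave 6 lower and 1 higher of 21 there, beside 4.97% and 7.39% of all genes. With all libraries tspo.L, an outer mitochondrial membrane protein of this list, fell in neurobots against biobots and against shams (-1.71 ± 0.41 SE, adjusted p = 0.00842 and -1.04 ± 0.36 SE, adjusted p = 0.0489).

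The 52 genes described as P450 but without a cyp name were counted apart. Of 26 tested, 1 was higher and 11 lower in neurobots against biobots, 2 were higher and 11 lower against shams, and 1 was higher and 4 lower in shams against biobots. Of all genes 19.5%, 19.6% and 3.55% were higher and 12.3%, 13.2% and 2.19% lower in the same order. The median log2 fold changes of those tested were -0.85, -0.87 and -0.09. The summed level of the 52 genes was 288 to 461 FPKM in neurobots, 640.1 to 716 in biobots and 484 to 528 in shams.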

How the data were processed

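Bulk polyadenylated RNA of 12 pools of whole Xenopus laevis bots was sequenced by the authors, 4 pools each of neurobots, biobots and sham neurobots, from low-input libraries that did not mark the strand. Reads were aligned by the authors to X. laevis v10.1 with HISAT2 2.0.5 and counted per gene with featureCounts 1.5.0-p3, and the submitters' notes also name StringTie 1.3.3b and DESeq2 1.20.0. The 2 deposited tables of 44478 genes that were used held raw counts per gene, as the authors deposited them, and FPKM, which the authors computed from counts and gene length. Recomputation showed that the deposited FPKM values rest on DESeq2 size factors (largest relative difference 2.40645e-13). Whether the counting used strand, or how reads matching several genes were treated, is not given in the sources used here.

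Counts were tested with edgeR 4.0.16 in R 4.3.3: TMM factors, the filterByExpr filter (minimum count 10, minimum total 15) and the functions glmQLFit (robust) and glmQLFTest, fitted to the 8 libraries that a comparison involves. P-values were adjusted by Benjamini and Hochberg over all genes tested, with a threshold of 0.05. An SE is the absolute log2 fold change divided by the square root of F. Alternatives were library sizes alone, DESeq2 1.42.0, no filter, the replicate number as a block, leaving out the first submission (NB1 and BB1), limma 3.58.1 on log2(FPKM + 1) and on log2(FPKM + 0.1), 1 fit on all 12 libraries, and leaving out each library in turn. The scripts were tested on simulated data. Count ratios were scaled by library sizes adjusted with TMM factors, with 95% exact binomial intervals. Folds against groups at 0 used the same scaling and assume 3 counts per library in that group. Both cover counting error only and leave out the spread between pools.

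Genes were named in the text by rule: the 12 with the highest mean FPKM, all tested steroid, sterol and vitamin D genes, all called fatty acid genes, and the 6 largest changes called in each direction and comparison; other genes named were chosen after their values were seen. The members and lists were chosen with earlier results of these data known. Each library pooled several bots, and p-values measure the spread between these pools. The 63 genes matched RefSeq gene models, all with equal start positions, from which overlaps were read. No sequences are shown.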

Additional observations from a re-analysis of the deposited data

Results flagged for a closer look

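Among the named genes, 96 groups of 4 libraries were examined for a library far from the other 3 of its bot type, and 9 were found, where chance gives about 1 in 20. BB1 accounted for 4 of them: cyp24a1.L at 2.62 FPKM (0.2895 to 0.389 in BB2 to BB4), cyp27a1 at 12.8 FPKM (1.58 to 2.76), cyp51a1.L at 2.13 FPKM (1.14 to 1.27) and, below the others, cyp2f1.S at 0.616 FPKM (1.23 to 1.35). In neurobots, NB1 had 9.26 FPKM of cyp2j2.L (3.95 to 4.16 in NB2 to NB4) and NB2 had 83.5 FPKM of cyp2e1.L (64.2 to 67.3 in the other pools). In shams, SH4 had 0.688 FPKM of cyp2c8.1.L (0.4896 to 0.517 in the others), SH3 had 0.567 FPKM of cyp2f1.S (0.234 to 0.2601) and SH1 had 47.8 FPKM of cyp4b1.2.L (37.9 to 39.1).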

How the results depend on the processing

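No named gene that was called reversed its direction under any alternative. Over the named genes, 435 of 480 combinations of gene and alternative kept their side of the threshold against biobots (16 lost, 29 gained a call), 430 of 496 against shams (45 lost, 21 gained) and 441 of 479 between shams and biobots (23 lost, 15 gained). Against biobots, where 16 P450 genes were called (6 higher, 10 lower), leaving out 1 library gave 13 to 24 calls (4 to 8 higher, 9 to 16 lower) and leaving out the first submission 25 (11 higher). Against shams, where 18 were called (9 higher, 9 lower), leaving out 1 library gave 11 to 29 (5 to 12 higher, 5 to 17 lower), leaving out the first submission 29 (17 lower) and DESeq2 14 higher. Between shams and biobots, where 4 were called (2 higher, 2 lower), leaving out 1 library gave 0 to 10 (0 to 5 higher, 0 to 5 lower), leaving out the first submission 10 (5 higher, 5 lower), DESeq2 10 (8 lower), no filter 4 lower, and 1 fit on all libraries 1 (0 higher, 1 lower). The causes were not tested. With the replicate number as a block, 18, 14 (5 higher) and 2 (0 higher) genes were called in the same order of comparisons. NB1 and BB1 shared the first submission, so that the block takes up part of that difference against biobots. No other shared origin of same-numbered libraries is known. The deviations of same-numbered libraries correlated at -0.33 to 0.36 over the 12 pairs, and at 0.07 for NB1 and BB1. Without TMM factors the median over all genes tested shifted on the log2 scale by 0.10 against biobots, by -0.06 against shams and by 0.16 between shams and biobots. Genes with few counts, such as cyp11a1.S, cyp19a1.L and cyp7a1, were limited by depth.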
